A study of Mus musculus with 9 samples.

Results

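The 9 genes described here, Abca1, Abca2, Abca3, Abca4, Abca5, Abca7, Abca8a, Abca8b and Abca9, encode lipid transporters of subfamily A of the ATP-binding cassette (ABC) proteins. They were picked by name from the 49315 genes of the deposited count table, with the difference between old and young brains already known, so their differences with age are given as a description. Whether a fit over all genes called them is stated beside the share of all genes called, and nothing is read from it. ABCA proteins are large membrane proteins that use ATP to move phospholipids, cholesterol, sphingolipids or retinoids across a membrane or onto an acceptor particle outside the cell. In the brain they are best known for loading apolipoprotein E with cholesterol and for handling the lipids of myelin and of the late endosome and lysosome. Members of the subfamily have been linked to Tangier disease (ABCA1), Stargardt disease (ABCA4) and the risk of Alzheimer's disease (ABCA7) in people.

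PolyA-selected RNA from whole brains of 5 young mice aged 3 months by their labels (3 or 4 months by the methods) and 4 old mice aged 33 months was sequenced one brain at a time, and all mice were wild-type C57BL/6J males with no further treatment. Libraries held 14229259 to 21150439 counted reads. Neurons, oligodendrocytes, astrocytes and microglia were all present by their markers, with no marker of these types at 0 in any library and summed neuronal markers at 7819 to 8579 CPM (read counts scaled to a common library size) in young and 7779 to 8436 in old brains. Whole brain is a mixture, so fewer cells of a type and less RNA per cell cannot be told apart in any value below. Young mouse 4 stood apart from the other young mice in its markers of activated microglia, with a mean log2 CPM of 4.05 beside 2.10 to 2.27, and values that turn on it are given with and without it.

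On the minus strand of chromosome 11 (GRCm38), 5 of the 16 mouse ABCA genes examined lie in a row, over 405.5 kb, in the order Abca8b (chr11:109932190-109995845), Abca8a (chr11:110025634-110095978), Abca9 (chr11:110100749-110168196), Abca6 (chr11:110176820-110251776) and Abca5 (chr11:110269369-110337716). The gaps between neighbours were 29.8, 4.77, 8.62 and 17.6 kb. Of the 11 ABCA genes that were tested, whose coding sequences were compared, Abca8a and Abca8b were the closest pair, with 74.8% of aligned bases identical, and each had a coding sequence of 4860 bases, or 1620 codons, in 39 exons. Abca9 shared 71.0% with Abca8a and 70.8% with Abca8b. The most alike stretch of the pair is shown because it bears on whether reads of Abca8a and Abca8b can be told apart. It lies in exons 15 and 16 of both genes, in the parts of chr11:110068817-110069479 and of chr11:109964980-109966785 that are coding, on the minus strand, and the 6 bases that differ are in capitals.
Abca8a: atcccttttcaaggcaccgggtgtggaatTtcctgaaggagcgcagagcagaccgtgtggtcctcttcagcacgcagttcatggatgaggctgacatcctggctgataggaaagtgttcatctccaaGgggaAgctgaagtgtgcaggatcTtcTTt
Abca8b: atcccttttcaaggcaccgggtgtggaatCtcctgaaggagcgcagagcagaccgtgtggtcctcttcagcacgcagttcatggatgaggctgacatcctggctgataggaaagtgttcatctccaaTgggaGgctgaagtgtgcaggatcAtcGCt
The longest run without a difference was 97 bases, shorter than the 150-base reads. No 150-base window of Abca8a, Abca8b or Abca9 occurred in the transcripts of another gene, and 1.64% of the 50-base windows of Abca8a and 2.45% of those of Abca8b did, in each other or in Gm11697, which overlaps exons of Abca8b on the opposite strand. Of the 9 genes, Abca3 was the exception at the longer window, with 5.58% of its 150-base windows shared with D330041H03Rik, which overlaps its exons on the opposite strand. The methods say that counting took strand into account where libraries kept it, but not whether these libraries did. How far reads of these overlapping pairs were told apart is thus not known.

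The 250 bases before the RefSeq start (GRCm38.p6) of the 2 genes that differed most with age, and of the nearest relatives of one of them on chromosome 11, are shown next, left out where they overlap an annotated exon. Capitals mark matches, on either strand, to TATAAA, the GC box GGGCGG, the E-box CACGTG, the CCAAT box, the letters TGACG, or GGTNA followed after 5 further bases by GGTCA, a spaced repeat of the kind bound by the oxysterol receptor LXR. No match overlapped another in these windows. All lie on the minus strand. They cover chr4:53159896-53160145 for Abca1, chr11:110095979-110096187 for Abca8a, chr11:109995846-109996095 for Abca8b and chr11:110168197-110168403 for Abca9.
Abca1: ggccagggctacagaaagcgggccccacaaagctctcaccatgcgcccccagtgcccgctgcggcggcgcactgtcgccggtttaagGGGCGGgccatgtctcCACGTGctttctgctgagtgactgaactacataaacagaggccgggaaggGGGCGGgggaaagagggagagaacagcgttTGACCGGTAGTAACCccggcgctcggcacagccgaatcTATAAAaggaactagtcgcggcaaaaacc
Abca8a: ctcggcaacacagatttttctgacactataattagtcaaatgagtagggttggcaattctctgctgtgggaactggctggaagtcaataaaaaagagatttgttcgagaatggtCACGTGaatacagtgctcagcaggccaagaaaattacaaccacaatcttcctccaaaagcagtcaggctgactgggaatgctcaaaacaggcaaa
Abca8b: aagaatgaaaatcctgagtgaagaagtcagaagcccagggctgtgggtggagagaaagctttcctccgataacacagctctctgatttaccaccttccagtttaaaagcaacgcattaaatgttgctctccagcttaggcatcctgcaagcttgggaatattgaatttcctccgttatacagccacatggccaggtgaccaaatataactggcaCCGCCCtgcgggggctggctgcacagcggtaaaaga
Abca9: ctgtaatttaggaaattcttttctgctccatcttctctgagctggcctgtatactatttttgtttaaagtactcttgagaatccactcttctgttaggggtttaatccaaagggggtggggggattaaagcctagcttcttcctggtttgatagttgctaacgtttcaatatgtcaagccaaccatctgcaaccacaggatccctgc
The LXR-type repeat was found before Abca1 and before none of the other 8 genes, and 58 of all 32851 RefSeq promoters (0.177%) held it. Its letters were written with the Abca1 sequence known, so its presence there is a description. The E-box stood at position -136 from the start of Abca8a and at -147 from that of Abca1, and 6.02% of all promoters held one. The TATA letters stood at -29 before Abca1, and 12.4% of all promoters held them. Abca8b had a GC box at -36 (32.7% of all promoters held one), and Abca9 had none of these letters in the window. The CCAAT box, held by 33.9% of all promoters, and the letters TGACG, held by 17.8%, were in none of the 4 windows. Base composition was taken over the full 250 bases, with those in annotated exons included. GC content was 61.6% before Abca1, 43.2% before Abca8a, 48.8% before Abca8b and 44.4% before Abca9, beside a median of 52.4% over all promoters.

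Compared per length of transcript, in TPM, the authors' values scaled for length and library size, levels of the 9 genes in young brains spanned 141 ± 31.3 (SD, n = 5) for Abca2 to 1.81 ± 0.499 for Abca4. Abca2, a transporter of the late endosome and lysosome that is abundant in oligodendrocytes, made up 56.5% of the summed TPM of the 9 genes. Abca3, known for loading surfactant lipid into the lamellar bodies of lung cells, followed at 33.4 ± 6.57 TPM. Abca7 stood at 21.6 ± 6.07 TPM, Abca5 at 16.0 ± 3.20, Abca1 at 15.2 ± 2.65, Abca8b at 11.96 ± 2.495, Abca8a at 5.23 ± 1.44 and Abca9 at 3.62 ± 0.802. Each gene exceeded the next one down in all 5 young mice with 1 exception, since Abca5 exceeded Abca1 in 3 of 5. In old brains the order changed at 2 places. Abca1 (17.8 ± 2.41 TPM, n = 4) exceeded Abca5 (14.8 ± 0.844) in all 4 old mice, and Abca8a (10.2 ± 0.204) exceeded Abca8b (9.33 ± 0.632) in 3 of 4. TPM values of old brains were lower as a whole, with a median log2 fold change over all genes of -0.14 on the log2(TPM + 1) scale, so differences with age are given from here on in CPM scaled by TMM factors, where that median was -9.21e-05.

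**Figure D1:**
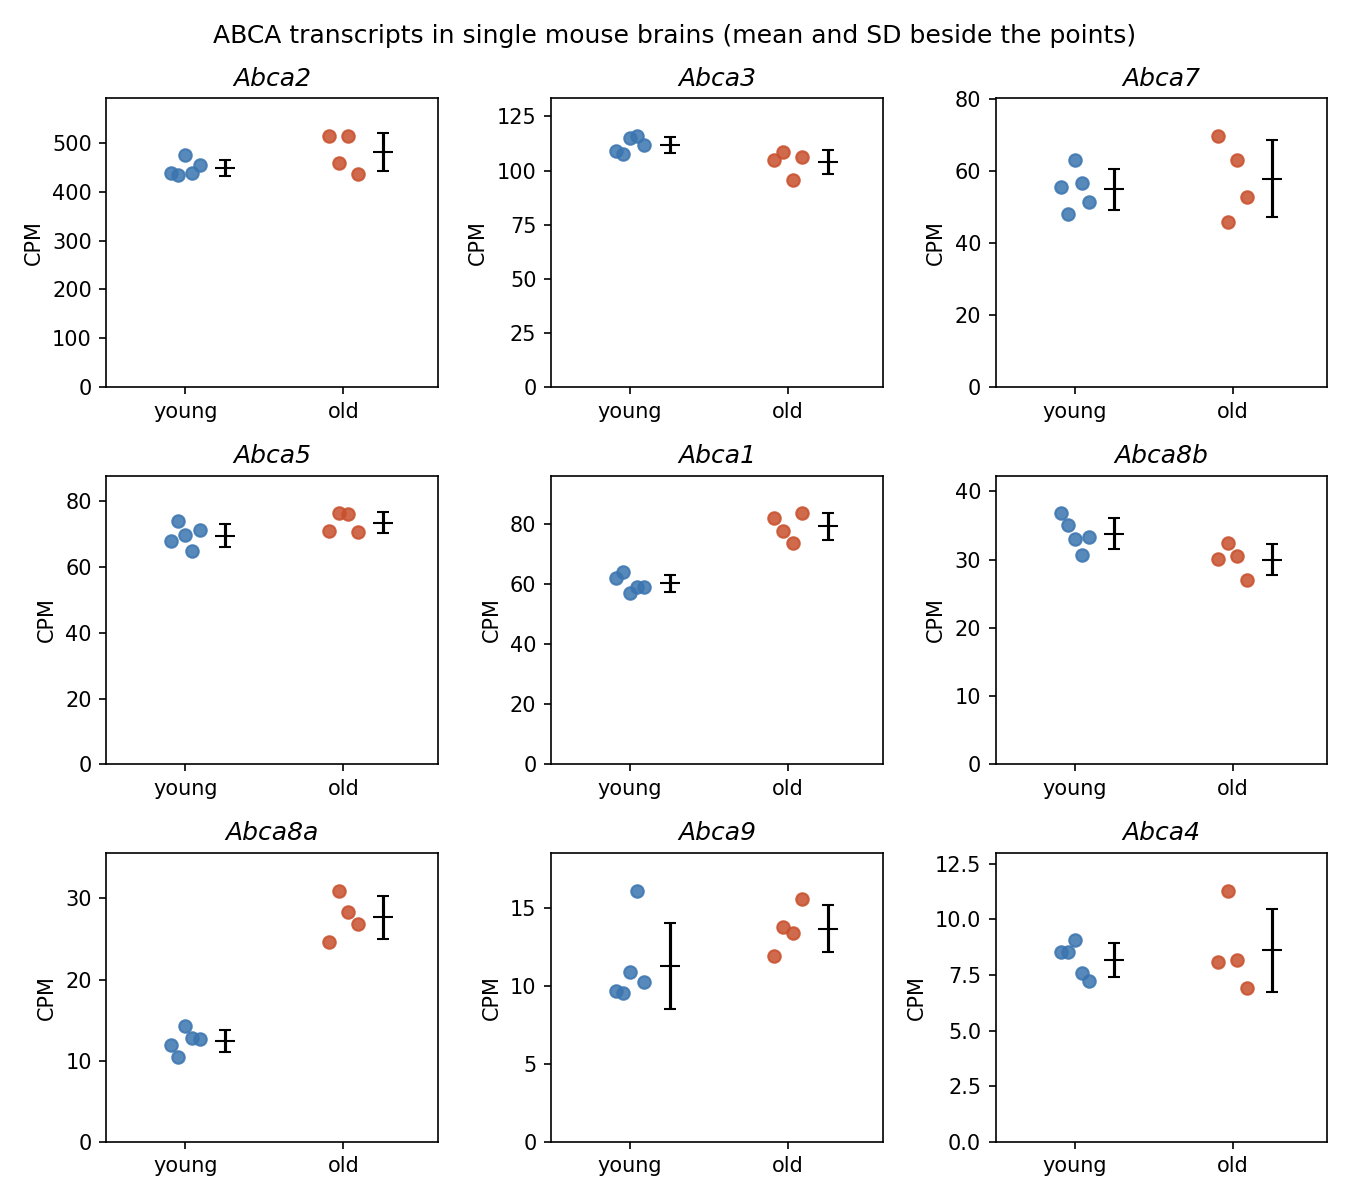
CPM of the 9 ABCA genes in each mouse brain, 1 panel per gene in the order of their levels per length, with the 5 young mice in blue, the 4 old mice in red, and the mean and SD as black bars. All old mice sit above all young mice for Abca8a and Abca1 and the ages overlap for the other 7.

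Of the 9 genes, 2 (22.2%) were called at an adjusted p under 0.05 by edgeR's quasi-likelihood test over 18492 genes, and both were higher in old brains. Over all genes tested 11% were called, 6.09% as higher and 4.89% as lower. The same 2 genes were those whose ages did not overlap in CPM, as for 12.6% of all genes, 6.5% with the old mice above the young. With the study's fold threshold of 0.58 on the log2 scale added, 1 of the 9 was called, Abca8a, beside 2.5% of all genes, 2.13% as higher. All 9 genes had passed the filter on low counts. Since the choice of genes rests on this contrast, nothing is read from these shares. The median log2 fold change of the 9 genes was 0.083, with 7 values above 0 and 2 below.

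Abca8a differed most with age. Its human relative ABCA8 is known for moving cholesterol and for promoting sphingomyelin production in oligodendrocytes. CPM values were 11.9, 10.5, 14.2, 12.8 and 12.7 in young mice 1 to 5 and 24.6, 31.0, 28.3 and 26.9 in old mice 1, 3, 4 and 5. The lowest old mouse thus stood far above the highest young one, with 190 to 264 reads behind each young value and 439 to 518 behind each old one. Mean CPM went from 12.4 ± 1.35 to 27.7 ± 2.67, a ratio of 2.23, and the fitted log2 fold change was 1.16 ± 0.083 (SE). With each mouse left out in turn it lay between 1.10 and 1.22.

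Abca8b, its closest relative, went the other way without separating the ages. Its CPM values were 36.8, 35.02, 33.1, 30.7 and 33.2 in young mice and 30.01, 32.4, 30.6 and 27.0 in old mice. Old mice 1, 4 and 5 lay below the lowest young mouse, young mouse 4, and old mouse 3 lay among the young. The log2 fold change was -0.17 ± 0.063 (SE), not called, and without young mouse 4 it was -0.21 ± 0.063 and called, beside 11.2% of all genes called in that fit. Abca8b was also called lower in the fit without a filter on low counts, where 2802 of 35028 genes were called.

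Within a library the ratio of both read counts does not depend on depth or scaling. For Abca8a over Abca8b it was 0.324, 0.300, 0.430, 0.415 and 0.381 in young mice, and 0.819, 0.954, 0.927 and 0.996 in old mice. The lowest old ratio was thus above the highest young one by more than the whole spread within either age. Its mean went from 0.370 ± 0.0566 to 0.924 ± 0.0753, a ratio of 2.497 between the means. Counts of Abca8a relative to those of Abca9 went from 1.13 ± 0.205 to 2.04 ± 0.222, also without overlap. Young mouse 4 had the lowest of these ratios, 0.793, beside 1.10 to 1.31 in the other young mice.

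**Figure D2:**
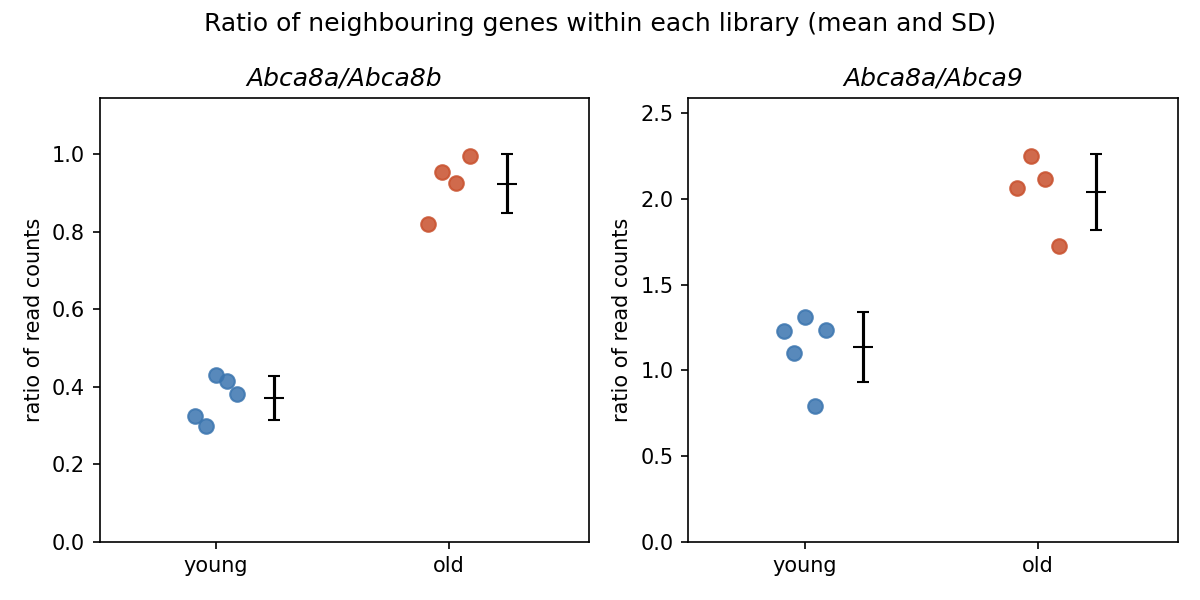
Ratio of read counts of Abca8a to Abca8b (left) and of Abca8a to Abca9 (right) within each library, for young mice in blue and old mice in red, with mean and SD as black bars. Old mice lie between 0.819 and 0.996 on the left, above all young mice at 0.300 to 0.430.

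Abca9, whose product is a relative of Abca8a with a less settled role in lipid handling, varied most among the young mice. CPM values were 9.67, 9.52, 10.9, 16.1 and 10.3 in young mice, and 11.9, 13.8, 13.4 and 15.6 in old mice. Young mouse 4 was above every old mouse, and the other 4 young mice were below every old one. With all mice the log2 fold change was 0.27 ± 0.15 (SE) and not called, and without young mouse 4 it was 0.44 ± 0.094 and called higher. The summed CPM of activated microglia markers moved in the same mouse, at 480 in young mouse 4, 275 to 302 in the other young mice and 401 to 524 in old mice. The part of these markers in the Abca9 values was not tested.

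Abca5, at the far end of the row and known as a transporter of lysosomes and late endosomes, had 67.7, 74.1, 69.8, 64.7 and 71.3 CPM in young mice, and 70.9, 76.3, 75.9 and 70.7 in old mice. The ages overlapped, and the log2 fold change was 0.080 ± 0.046 (SE). Abca6, between Abca9 and Abca5 and not among the 9 genes, had 3.34 ± 0.532 CPM in young and 3.81 ± 0.652 in old brains, with a log2 fold change of 0.18 ± 0.16 (SE, edgeR adjusted p = 0.52). Of the 17 other annotated genes within 500 kb of the row in the count table, 7 were tested. Slc16a6, a monocarboxylate transporter gene, fell from 18.6 ± 0.809 to 14.9 ± 1.11 CPM (log2 fold change -0.32 ± 0.069 (SE), adjusted p = 0.0064), and the other 6, Amz2, Arsg, Wipi1, Prkar1a, Fam20a and Map2k6, lay between -0.16 and 0.15 and were not called. A difference of the size seen for Abca8a was thus not measured at any tested gene around it, the immediate neighbours on both sides included.

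**Figure D3:**
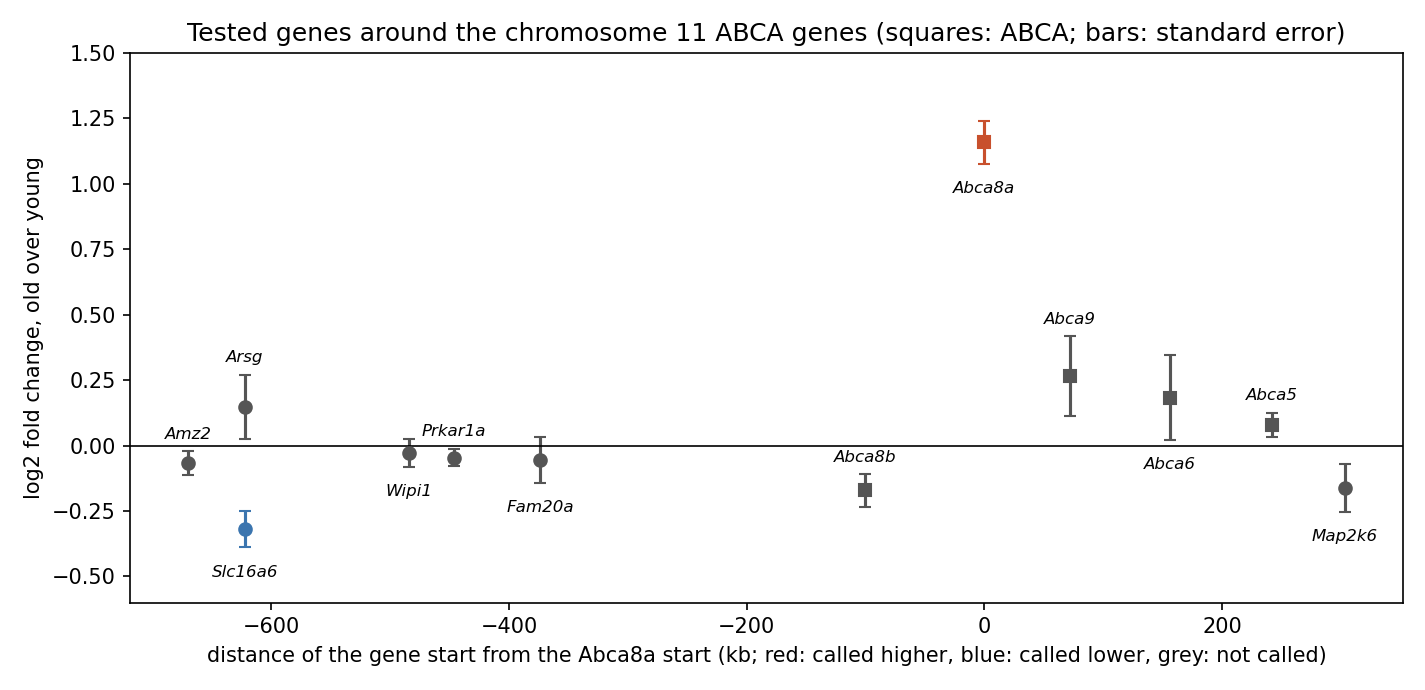
Log2 fold change of old over young with its standard error for the tested genes in and around the row of ABCA genes on chromosome 11, by distance of each gene's start from that of Abca8a in kb. Squares are ABCA genes and circles other genes, with calls in red (higher) and blue (lower). Abca8a at 1.16 stands above its neighbours Abca8b at -0.17 and Abca9 at 0.27.

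Among the genes of lipid export, Abca1 passes cholesterol and phospholipid to lipid-poor apolipoproteins and is the textbook target of LXR. Its CPM values were 62.1, 64.2, 57.2, 59.2 and 58.9 in young mice, and 82.1, 77.7, 73.7 and 83.6 in old mice. Every old mouse was above every young one. The means were 60.3 ± 2.79 and 79.3 ± 4.50, a ratio of 1.31, and the log2 fold change was 0.39 ± 0.047 (SE), between 0.37 and 0.43 with each mouse left out. On the log2(TPM + 1) scale, with its lower level for old brains as a whole, it was 0.22 and not called.

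Abca7, closest to Abca1 by coding sequence among the 11 genes compared (65.1% identical) and known for phospholipid export and for its part in engulfment, had 55.6, 48.1, 63.0, 56.8 and 51.4 CPM in young mice, and 69.9, 45.8, 63.1 and 52.7 in old mice. The old mice spanned both ends of the range, with old mouse 1 at the top and old mouse 3 at the bottom of all 9. The log2 fold change was 0.083 ± 0.13 (SE), and its sign turned without old mouse 1, to -0.018.

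Abca2, the most abundant of the 9, is tied to sphingolipid and cholesterol handling in the lysosome and to myelin. It had 438, 434, 475, 439 and 456 CPM in young mice, and 513, 459, 515 and 437 in old mice. Old mice 1 and 4 were above all young mice and the other two among them, and the log2 fold change was 0.10 ± 0.049 (SE). Between 6511 and 9665 reads stood behind each of these values, the most of the 9 genes.

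Abca3 had 109, 107, 115, 116 and 112 CPM in young mice, and 105, 109, 95.9 and 106 in old mice. Old mice 1, 4 and 5 were below the lowest young mouse, and old mouse 3 among the young. The log2 fold change was -0.11 ± 0.042 (SE), between -0.13 and -0.070 with each mouse left out. The overlap with D330041H03Rik described above applies to these counts.

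Abca4, which clears retinoid from photoreceptor membranes in the retina, was the least abundant of the 9 per length. It had 8.52, 8.52, 9.07, 7.58 and 7.23 CPM in young mice, and 8.07, 11.3, 8.15 and 6.93 in old mice. Old mouse 3 was the highest and old mouse 5 the lowest of all. The log2 fold change was 0.065 ± 0.12 (SE), and its sign turned without old mouse 3, to -0.082.

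Spread within an age differed between the genes. Among young mice the SD ran from 3.29% of the mean for Abca3 to 24.3% for Abca9, and among old mice from 4.20% for Abca5 to 21.7% for Abca4. On the TPM scales Abca2, Abca4, Abca5 and Abca7 had log2 fold changes below 0, down to -0.11, and these values were above the median of all genes there, -0.14 with a pseudocount of 1 and -0.16 with 0.1. Of the ABCA genes outside the 9, Abca17 was also tested (log2 fold change 0.12 ± 0.22 (SE), edgeR adjusted p = 0.79). Abca12, Abca13, Abca14 and Abca15 had 66, 37, 2 and 7 reads over all 9 libraries, and Abca16 had 0. By counting error alone, 0 reads leave room for an expected total of up to about 3.

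**Figure D4:**
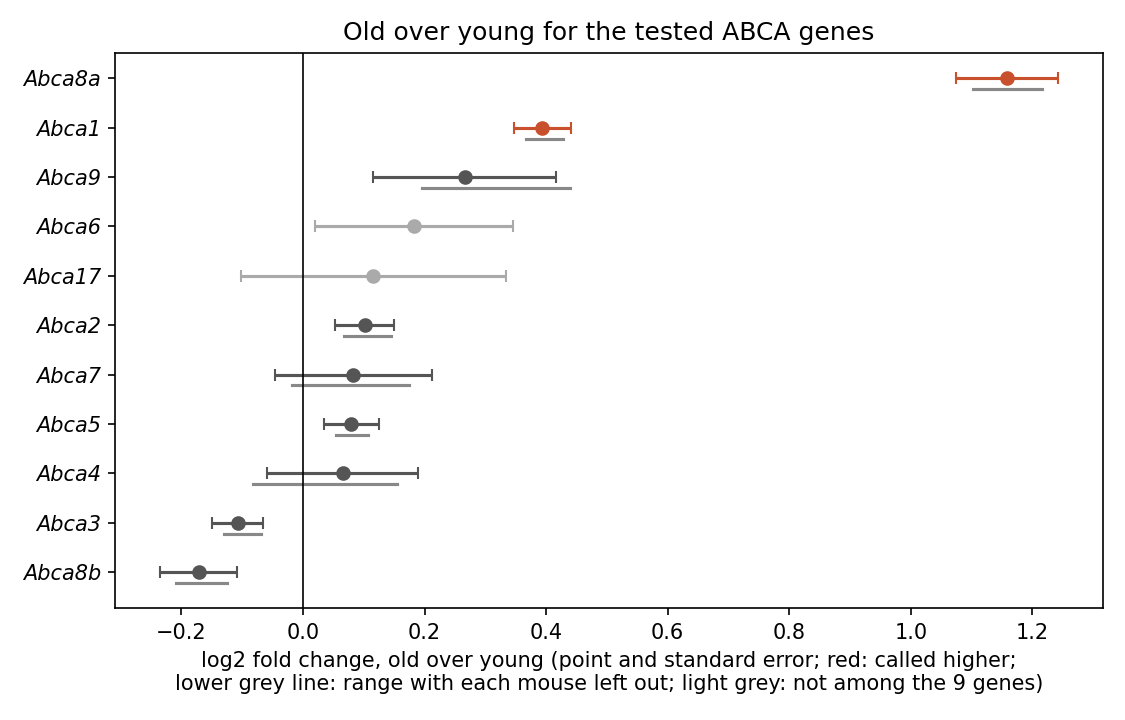
Log2 fold change of old over young brains for the 11 tested ABCA genes, as points with standard errors, in red where called higher. The lower grey line gives the range with each mouse left out, and light grey points are Abca6 and Abca17. Abca8a at 1.16 and Abca1 at 0.39 stand to the right, and the other 9 lie between -0.17 and 0.27.

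The genes that work with these transporters were taken from lists by role. The oxysterol receptors and their partners, which act on Abca1 transcription, are Nr1h2, Nr1h3, Rxra, Rxrb and Rxrg, and none of the 5 was called by edgeR or DESeq2, with 1 at an unadjusted p under 0.05. Nr1h3 had 4.99 ± 0.972 CPM in young and 5.52 ± 0.684 in old brains, and Nr1h2 had 53.6 ± 2.31 and 54.0 ± 2.47. Rxra came nearest to a call, with 40.9 ± 3.87 and 46.9 ± 4.30 CPM (0.20 ± 0.073 (SE), edgeR adjusted p = 0.09). With young mouse 5 or old mouse 5 left out, or without a filter on low counts, 1 of the 5 was called, as higher. Of 11 known LXR targets other than Abca1, Nr1h3 among them, 3 rose, 1 fell and 7 were not called, with a median log2 fold change of 0.055. Apoe, the main lipid carrier of the brain, rose from 1428 ± 183 to 1978 ± 75.4 CPM (0.47 ± 0.080 (SE), adjusted p = 0.0047). Srebf1, a regulator of fatty acid synthesis, rose by 0.38 ± 0.081 (SE, adjusted p = 0.013), and Abcg1, which passes cholesterol to lipoprotein particles, by 0.17 ± 0.042 (SE, adjusted p = 0.016). Smpdl3a, a phosphodiesterase gene, fell by 0.23 ± 0.061 on the log2 scale (SE, adjusted p = 0.022), a call lost without old mouse 1 or 5. On the TPM scales none of the 11 was called by limma, and Abcg1 changed sign there. None of 10 further regulators named for Abca1, among them the Sp1, Usf and Ppar genes, was called by edgeR or DESeq2, with 1 at an unadjusted p under 0.05.

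SREBP2 targets, the genes that serve cholesterol synthesis and uptake, had 6 of 15 called lower and 0 higher, and a median log2 fold change of -0.29. Dhcr7, an enzyme of the last steps of cholesterol synthesis, fell from 36.8 ± 2.02 to 25.7 ± 3.17 CPM (-0.52 ± 0.072 (SE), adjusted p = 0.00024). Cyp51, an enzyme of the same pathway, fell from 75.4 ± 4.10 to 57.5 ± 7.87 CPM (-0.39 ± 0.076 (SE), adjusted p = 0.0062). The count depended on the old mice, with 3 called without old mouse 1 and 11 without old mouse 3.

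Acceptors of exported lipid and their receptors numbered 13 tested, of which 3 rose and 2 fell, with a median of -0.058. Apod, a lipid-binding lipocalin, rose from 161 ± 9.62 to 390 ± 54.2 CPM (1.28 ± 0.088 (SE), adjusted p = 3.9e-05), and Apoc1 from 0.632 ± 0.0780 to 1.37 ± 0.134 CPM (adjusted p = 0.0043). Vldlr, a receptor of Apoe particles, fell from 103 ± 3.89 to 91.6 ± 3.03 CPM (adjusted p = 0.012). Lrp1, the large endocytic receptor, had 810 ± 16.9 and 819 ± 31.8 CPM and Lrp8 had 107 ± 1.53 and 107 ± 7.02, neither called. Apoa1, the acceptor that serves Abca1 in the blood, was too low to be tested.

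In sphingomyelin and ceramide metabolism, a pathway of lipids linked to Abca2 and ABCA8, 3 of 15 genes rose and 0 fell, by small amounts. Asah1, the lysosomal ceramidase, rose by 0.16 ± 0.048 (SE, adjusted p = 0.041), Cers6 by 0.16 ± 0.046 (SE, adjusted p = 0.033) and Cers2, the ceramide synthase of myelin lipids, by 0.15 ± 0.046 (SE, adjusted p = 0.040). Their signs turned on the TPM scales, and the count was 0 without young mouse 3 or old mouse 5, 1 without young mouse 2 or 5 or without old mouse 3 or 4, and 2 or 3 without the others. Engulfment genes, the process Abca7 is known for, had 2 of 12 called, both higher. Mertk, a receptor for dying cells, rose from 32.5 ± 6.54 to 51.8 ± 3.52 CPM (adjusted p = 0.013) and Axl, of the same receptor family, from 47.6 ± 4.42 to 58.6 ± 4.13 CPM (adjusted p = 0.0085). Without young mouse 4 the count was 5, all higher. None of 11 tested retinoid handling genes, which serve the lipids of Abca4, was called by edgeR or DESeq2, or had an unadjusted p under 0.05.

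**Figure D5:**
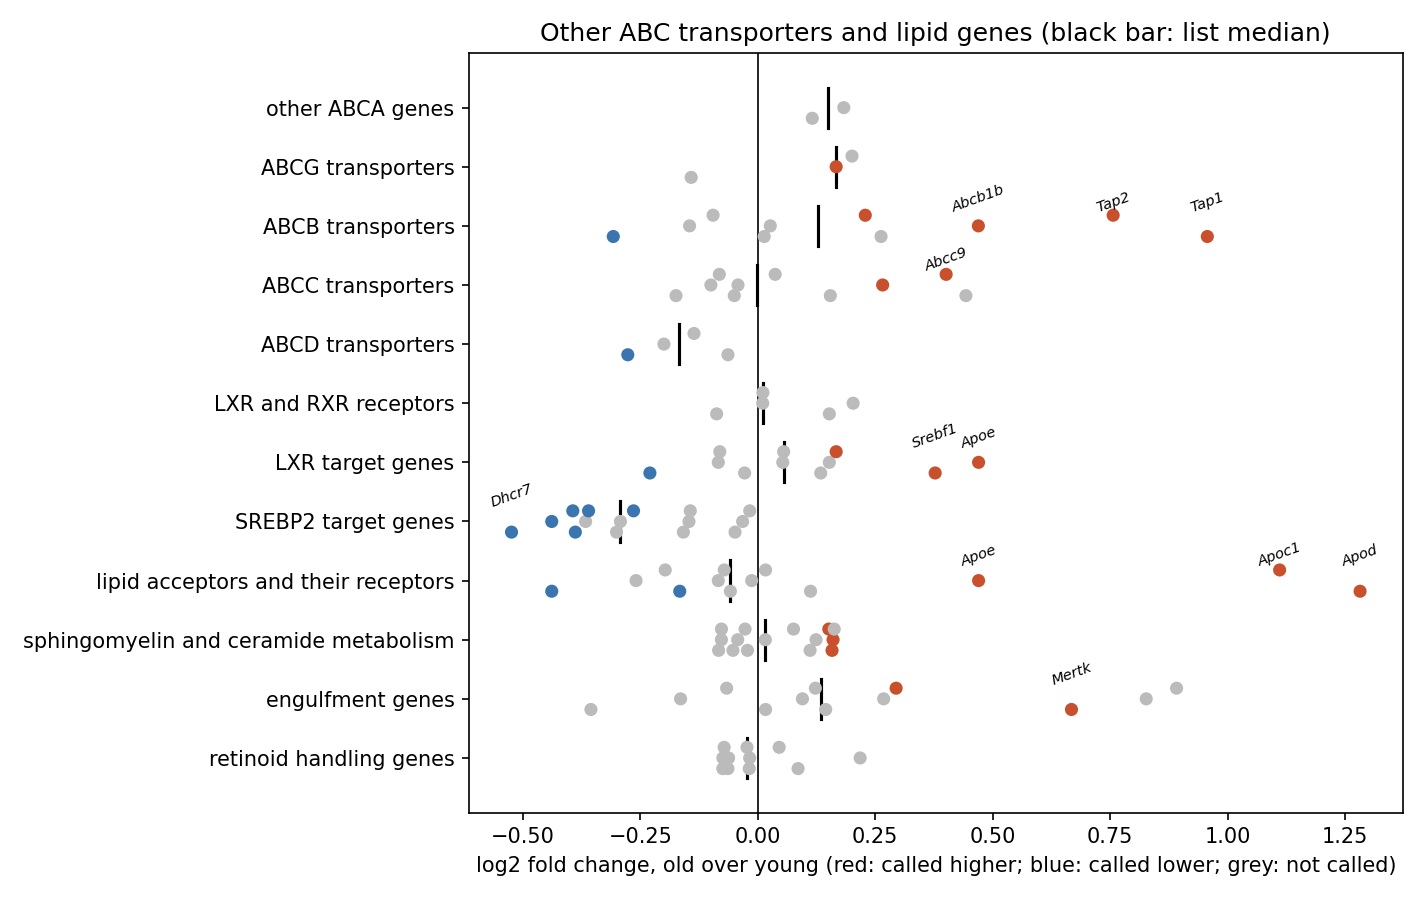
Log2 fold change of old over young brains for the tested genes of 12 lists of other ABC transporters and lipid genes, 1 point per gene, in red where called higher, blue where called lower and grey where not called, with the median of each list as a black bar. SREBP2 targets lie to the left with a median of -0.29, and Apod and Apoc1 lie farthest to the right at 1.28 and 1.11.

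Of 29 tested ABC transporter genes outside the 9, 7 rose and 2 fell, 31.0% beside 11% of all genes, with a median of 0.027. They belonged to other subfamilies. Tap1 and Tap2, which load peptides for display on MHC class I, rose most, Tap1 from 3.37 ± 0.868 to 6.61 ± 1.45 CPM (0.96 ± 0.18 (SE), adjusted p = 0.0035) and Tap2 from 11.02 ± 0.749 to 18.7 ± 0.738 CPM (0.76 ± 0.071 (SE), adjusted p = 7.8e-06). The drug efflux pumps of the blood-brain barrier Abcb1a and Abcb1b rose by 0.23 ± 0.056 (SE, adjusted p = 0.014) and 0.47 ± 0.14 (SE, adjusted p = 0.035) on the log2 scale, and of the 9 fits that left out a mouse Abcb1b was called in 2, those without young mouse 4 or old mouse 5. Abcb1a and Abcb1b are paralogs, and how far their reads can be told apart was not checked. Abcc9, a subunit of potassium channels in vessel wall cells, rose by 0.40 ± 0.082 (SE, adjusted p = 0.0046), and Abcc4, an efflux pump of organic anions, by 0.27 ± 0.075 (SE, adjusted p = 0.029), a call lost without young mouse 1 or 3 or without old mouse 3 or 4. Abcb9, a lysosomal peptide transporter, fell from 50.2 ± 4.99 to 40.6 ± 1.98 CPM (adjusted p = 0.0063), and Abcd2, which brings very long fatty acids into peroxisomes, from 50.7 ± 2.98 to 41.9 ± 1.82 CPM (adjusted p = 0.0024).

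Markers of the cell types that could carry these transcripts moved with age in part. Oligodendrocyte markers had 4 of 12 called higher (Hapln2, Aspa, Mobp and Mbp) and 1 lower (Mog). The call of Mog was lost without young mouse 1, 3 or 5 or without old mouse 1 or 5. That of Mobp was lost without old mouse 1, and that of Mbp without old mouse 3. Opalin had a log2 fold change of -0.56 ± 0.17 (SE) and was not called (edgeR adjusted p = 0.063). The summed CPM of the 12 markers was 6418 to 7505 in young and 7027 to 8652 in old mice. The summed level of 11 endothelial markers did not overlap, with 427 to 439 CPM in young and 497 to 604 in old mice. The most abundant of them, Slc2a1, went from 120 ± 10.9 to 191 ± 35.7 CPM. Of the 11, 5 were called higher, among them Ly6c1 and Slc2a1, and 6 were not called. Log2 fold changes of these 6 were -0.43 ± 0.13 (SE) for Itm2a, -0.30 ± 0.10 for Kdr and -0.14 ± 0.098 for Cldn5. They were -0.0089 ± 0.072 for Tek, 0.11 ± 0.075 for Slco1a4 and 0.19 ± 0.076 for Esam. With young mouse 1 or old mouse 4 left out, 3 endothelial markers were called, and without young mouse 4 there were 4 higher and 1 lower. Activated microglia markers had 4 of 12 called higher, and 11 without young mouse 4. Of fibroblast markers 1 of 13 rose (Mgp) and 1 fell (Col3a1), 3 and 1 without old mouse 1, with sums of 228 to 263 and 207 to 330 CPM, and none of 10 astrocyte markers was called by edgeR, with 3 at an unadjusted p under 0.05 and 2 called by DESeq2. Homeostatic microglia markers had 2 of 12 called higher, 5 without young mouse 4. Their sums were 263 to 363 CPM in young and 347 to 407 in old mice. The 363 was young mouse 4, and the other young mice lay at 263 to 296, below every old mouse. S100a9, a blood marker, was at 0 in at least 1 young library. Blood markers summed to 87.5 to 118 CPM in young and 130 to 474 in old mice without overlap, and 3 of 8 were called higher, a count of 0 without old mouse 1 or without young mouse 1, 2, 3 or 4, and of 1 without young mouse 5 or old mouse 5. Of 12 neuronal markers 4 fell (Slc17a6, Stmn2, Tubb3 and Thy1). The part of any of these cell types in the values of Abca8a, Abca1 or the other genes was not tested.

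The genes whose values went most closely with each member were ranked by Pearson's r over the 9 mice, after subtraction of the mean of each age from log2 CPM. These r are the highest of 14502 genes in 9 points that share their libraries, and are given as a description. For Abca8a they were Il15ra (0.97), Anapc15 (0.97) and Gm37691 (0.96). For Abca1 they were Dhx32 (0.97), Sec14l1 (0.96) and Zbtb34 (0.96), and for Abca2 they were Pigv (0.99), Ssbp3 (0.99) and Slc22a15 (0.99). Abca7 went with Ints3 (0.97), Fbxo22 (0.97) and Ppp1r37 (0.96), Abca3 with Rnf114 (0.96), Dxo (0.95) and Ift74 (0.95), and Abca4 with Col4a1 (0.97), Gm26711 (0.95) and Gna13 (0.94). Abca5 went with Zfyve21 (0.97), Klhdc8a (0.95) and Oxld1 (0.94), and Abca8b with Pik3r1 (0.97), Zfp939 (0.95) and Dnah1 (0.94). For Abca9 they were Cd74 (0.97), Gfap (0.96) and Nktr (0.95), and without young mouse 4 these became 0.87, 0.78 and 0.90. Between the 9 genes themselves r ran from -0.79 for Abca1 with Abca8a to 0.78 for Abca2 with Abca7, and it was -0.059 for Abca8a with Abca8b.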

How the data were processed

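Polyadenylated RNA from 9 single mouse brains was sequenced by the authors as read pairs of 150 bases. The authors used Trimmomatic to trim the reads, STAR to align them to the mouse genome (mm10, GRCm38) and featureCounts to count unique alignments over exons. Whole reads per gene, not scaled, make up the deposited counts. The deposited normalized counts are a signal that the authors obtained by dividing the counts of each library by a size factor (DESeq2 per the labels). The deposited TPM values were scaled by the authors for length and library. The column of 1 further brain that matches no listed sample was not used.

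Counts were filtered with filterByExpr (minimum count 10, minimum total 15), scaled with TMM and fitted with edgeR's quasi-likelihood test with robust dispersion and Benjamini-Hochberg adjustment over 18492 genes (edgeR 4.0.16 in R 4.3.3). Genes were called at an adjusted p under 0.05. CPM used TMM-scaled totals, and log2 CPM a prior count of 2. On counts simulated for this comparison, 200 of 18492 genes were changed by 1 on the log2 scale, drawn from genes above a minimum mean level. Of the changed genes 93.5% were called, and 6.03% of calls were unchanged genes. Smaller changes, such as most of those described here, were not simulated. Libraries of one age differed by more than counting noise (chi-square per degree of freedom at least 4.05), so each counts as 1 replicate. Coordinates came from GENCODE M21 (GRCm38) and promoters from RefSeq (GRCm38.p6), where all 9 genes matched. Read numbers given beside a value cover counting error only.

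The 9 genes and all lists were chosen with earlier results of these data known. Named are the 9 genes, the other ABCA genes, up to 4 called genes of each list with the largest change and the receptors and acceptors by role, genes within 500 kb of the chromosome 11 row, and the 3 genes with the highest age-centred r among those with a mean log2 CPM of at least 1. Certain genes that this rule takes in are left out of the text. Sensitivity was checked with other scalings and filters, DESeq2 1.42.0, limma 3.58.1 on TPM (+ 1 or 0.1) and normalized counts on a log2 scale, the replicate number as a block, a fold threshold and each mouse left out.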

Additional observations from a re-analysis of the deposited data

Results flagged for a closer look

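In groups of 4 or 5 mice, 74 group values were checked for a mouse whose gap to its nearest neighbour took an unusually large share of the group's range. It was found in 6, where about 3.7 are found by chance. Young mouse 4 was that mouse in 4 of them. In Abca9 it stood at a log2 CPM of 4.02 beside 3.27 to 3.46 in the other young mice, a share of 0.749. The mean of the activated microglia markers was 4.05 in it beside 2.10 to 2.27 (0.913), and that of the engulfment genes 5.74 beside 5.42 to 5.45 (0.911). Both lists hold Axl, Tyrobp and Trem2, so these results rest in part on the same genes. For pericyte and smooth muscle markers it was lower, at 3.48 beside 3.75 to 3.80 (0.836). Old mouse 1 had a mean of the ABCC transporters of 3.68 beside 3.55 to 3.56 (0.898). Young mouse 2 had a mean of the chromosome 11 neighbour genes of 5.13 beside 5.21 to 5.24 (0.793).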

How the results depend on the processing

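Abca8a was called in all 18 alternatives (log2 fold change 0.87 to 1.22) and Abca1 in 16 (0.22 to 0.43), the exceptions being limma on both TPM scales. Over all genes, 594 were called on log2(TPM + 1), 600 on log2(TPM + 0.1) and 463 with the fold threshold, against 2031. Of the 9 ABCA genes, 1 was called under each of these, and of the 29 other ABC genes 1, 1 and 2 against 9. With each mouse left out, 1516 (without old mouse 5) to 2034 genes, 2 to 4 of the 9 genes and 7 to 10 of the other ABC genes were called. The 4 were called without young mouse 4, 3 higher and 1 lower. Without a filter on low counts 3 of the 9 were called, 2 higher and 1 lower, beside 2802 of 35028 genes. Of the refitted log2 fold changes of the 9 genes, 159 moved by less than the spread between mice and 12 by more, and neither called gene changed sign. Of the counts called in the gene lists, 397 stayed within 1.5 times of the value given and 123 did not. With rank correlation, 0 to 2 of the 3 genes closest to each member stayed the same.

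Replicate numbers gave no clear sign of a pairing of the mice. The correlation of deviations of equal numbers was 0.17, -0.12, 0.088 and -0.024 for numbers 1, 3, 4 and 5. Number 1 was the best match in both directions and the others were not. With so few mice, these correlations cannot settle whether mice of equal number were handled together. With the replicate block over the 8 mice with shared numbers, 1811 genes and 2 of the 9 ABCA genes were called, against 1868 and 2 in the same mice without the block, an alternative chosen after the data were seen. Abca12 to Abca16 did not pass the filter on low counts, and without a filter 6 of the other ABCA genes were tested and 0 called.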
